A study of Homo sapiens with 131 samples.

Results

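The ubiquitin-conjugating (E2) enzyme mRNAs are here the 36 genes whose symbol is UBE2 followed by a single letter, with or without a number, out of 59412 genes named in the processed tables. Of these, 32 stood in at least 1 of 40 tables of RNA editing, which together held 12997 genes, and 30 stood in every one. UBE2L2 and UBE2L4, annotated as pseudogenes, and UBE2L5 and UBE2U stood in none. UBE2L6 stood in 36 of the editing tables and UBE2V1 in 12. The E2 enzymes take activated ubiquitin from an E1 enzyme onto a cysteine and, with an E3 ligase, pass it to a substrate. Some work with many E3s, some build chains of 1 linkage, and some carry ubiquitin-like proteins such as NEDD8 or ISG15. P-bodies, membraneless bodies of the cytoplasm, hold mRNA and proteins such as DDX6, LSM14A, 4E-T, PATL1, EDC3 and EDC4, and are known for storing untranslated mRNA and for holding decapping factors.

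The study marked mRNAs near P-body proteins by RNA editing in HCT116, a human colon cancer line, and in HEK293T, a human embryonic kidney line. APOBEC1 edits C to U (STAMP) and the ADAR2 deaminase domain, ADAR2dd, edits A to I (HyperTRIBE). Induced HCT116 cells carried LSM14A, 4E-T, PATL1, DDX6 or EDC3 joined to ADAR2dd, in both name orders, against ADAR2dd alone, or DDX6, LSM14A, PATL1, 4E-T, EDC3, EDC4 or DCP2 joined to APOBEC1, against APOBEC1 alone. Other induced HCT116 cells carried CNOT10, in both name orders, or CNOT1-R joined to APOBEC1, each in 1 library. Dual-editor cells of either line carried APOBEC1-DDX6 and LSM14A-ADAR2dd together, against APOBEC1 and ADAR2dd unfused. A second HCT116 dual set is labelled illumina. HEK293T cells with LSM14A-TRIBE-ID had 0, 15, 30, 60 or 120 min of rapamycin, and those with DDX6-STAMP-ID 0, 15, 30 or 120 min. The remaining data were TPM of 4 uninduced HCT116 lines (APOBEC1-DDX6, ADAR2dd, APOBEC1 with ADAR2dd, and APOBEC1), translation efficiency of DDX6-KO and wild-type cells of both lines, and poly(A) tails from nanopore reads of dual-editor cells. The labels name no clone number, no promoter and no separate cultures, so p-values measure the spread between these libraries, which may be technical.

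The 83 editing libraries held 6259071 to 13432692 reads, with a median of 9976552, and most groups had 2 libraries, while APOBEC1-DDX6 and the APOBEC1 control each had 3. All 8 HCT116 markers (EPCAM and keratins among them) were higher in HCT116 than in HEK293T, and 6 of 8 HEK293T markers, LIN28B and NEFL among them, were higher in HEK293T, while PAX2 and HOXA9 were not. The editing score of a gene was the percentage of its reads that carried an edit, and it also depends on how many editable bases the reads cover, which the tables do not give. An E2 mRNA was tested where every library had at least 20 reads and the comparison at least 10 edited reads. It was called when edgeR's adjusted p fell below 0.05. Where both control libraries had 0 edited reads, folds are lower bounds against 3 counts over the group's reads. Reads from the UBE2D paralogues and from E2 pseudogenes could be split between copies, because the handling of multiply mapped reads is not given in the sources used here.

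E2 mRNAs were among those edited with the P-body protein LSM14A joined to ADAR2dd. All 26 members tested rose over ADAR2dd alone, where 93.1% of all 8392 genes tested also rose and 0.0357% fell, so the count follows the background. The median score of these members was 4.13%, against 4.32% over all genes tested. The library-wide share of edited reads was 4.93% with the fusion and 0.232% with the control. What set the members apart from each other was the level. Scores ran from 1.58% in UBE2L3, the E2 of HECT and RBR ligases, to 14.8% in UBE2B, a Rad6 orthologue that works with RAD18 in DNA damage tolerance. The members at the bottom and at the top were not in the same role group, but the scores of their groups overlapped. The general group, with UBE2L3, ran from 1.58% to 8.22%. The DNA damage and histone H2B group, with UBE2B, ran from 4.09% to 14.8%.

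**Figure D1:**
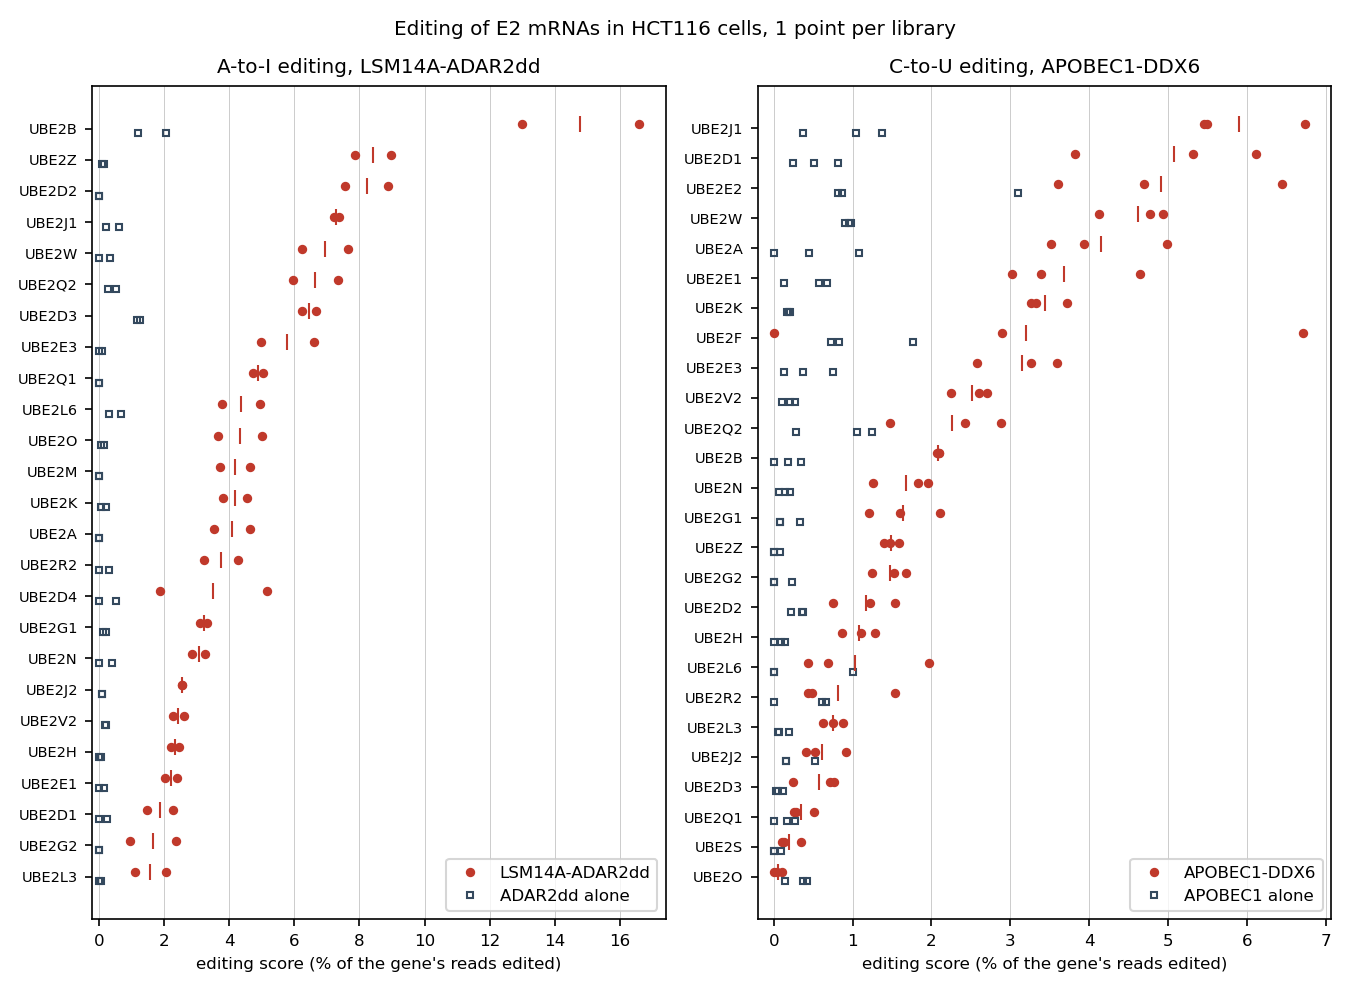
Editing scores (percentage of reads with an edit, x axis) of the E2 mRNAs tested in HCT116 cells, 1 filled point per fusion library with a tick at the mean and open squares for the control libraries. With LSM14A-ADAR2dd (left) the members drawn lie above their control squares, and with APOBEC1-DDX6 (right) the order differs: UBE2J1 leads and UBE2O lies below its control.

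Within the DNA damage and histone H2B group, UBE2B (gene at chr5:134371569-134392108, GRCh38.p14) had scores of 16.6% and 13.0% in LSM14A-ADAR2dd libraries, against 1.21% and 2.07% with ADAR2dd alone. It rose 9.03-fold (adjusted p = 3.71e-08) and was the most edited member over the control libraries together. Its paralogue UBE2A had 4.64% and 3.54% in fusion libraries, against 0 edited reads in both control libraries, which allows up to 0.128%, and was thus at least 32.0-fold higher (adjusted p = 5.39e-08). The UBE2B and UBE2A fusion scores did not overlap.

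The UBE2D enzymes, near-identical proteins that serve many RING ligases, had unlike scores. UBE2D2 had 8.88% and 7.55% with the fusion and 0 edited reads in both control libraries (up to 0.156%), at least 52.6-fold higher (adjusted p = 2.64e-09). UBE2D3 had 6.68% and 6.24% with the fusion, against 1.27% and 1.2% in controls, a 5.28-fold rise (adjusted p = 2.22e-10). Of the members tested, UBE2D3 had the second highest control score, after UBE2B. UBE2D4 had 1.87% and 5.15% with the fusion, against 0.529% and 0% (adjusted p = 0.0185), and UBE2D1 had 1.49% and 2.27%, against 0.243% and 0% (adjusted p = 0.00752). The order of mean scores was UBE2D2, UBE2D3, UBE2D4, UBE2D1. The UBE2D4 libraries spread so far apart that they overlapped those of UBE2D1, while both lay below both UBE2D3 libraries.

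Among the other members of high score, UBE2Z, an E2 charged by UBA6, had 7.87% and 8.97% with LSM14A-ADAR2dd, against 0.103% and 0.166% in controls, a 62.6-fold rise (adjusted p = 6.58e-13). UBE2J1, anchored in the endoplasmic reticulum (ER) membrane for ER-associated degradation, had 7.37% and 7.21%, against 0.613% and 0.209% (adjusted p = 3.04e-08). UBE2W, which ubiquitinates protein N termini, had 7.65% and 6.23%, against 0.339% and 0% (adjusted p = 3.09e-08). These fusion scores lay far outside the control libraries. UBE2Q2, a large E2, had 5.96% and 7.33% with the fusion, against 0.531% and 0.271% (adjusted p = 1.41e-05).

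The K63-chain enzyme UBE2N had 3.26% and 2.86% with the fusion, against 0% and 0.399% in controls, a 15.4-fold rise (adjusted p = 5.77e-06). Its inactive partner UBE2V2 had 2.60% and 2.26%, against 0.194% and 0.204%, a 12.2-fold rise (adjusted p = 4.13e-05). The pair thus stood within 1 percentage point of each other in mean score, while the other partner, UBE2V1, was not in that table. Among the carriers of ubiquitin-like proteins, UBE2M, which carries NEDD8, had 4.63% and 3.73% with the fusion and 0 edited reads in both controls (up to 0.10%), at least 41.7-fold higher (adjusted p = 1.73e-08). UBE2L6, the ISG15 enzyme, had 4.95% and 3.77%, against 0.311% and 0.671% (adjusted p = 0.00133). At the low end, UBE2G2, an enzyme of ER-associated degradation, had 2.36% and 0.956%, against 0 edited reads in both controls, and UBE2L3 had 1.11% and 2.04%, against 0% and 0.0577%. The other 9 members tested, UBE2E1, UBE2E3, UBE2G1, UBE2H, UBE2J2, UBE2K, UBE2O, UBE2Q1 and UBE2R2, had mean scores between 2.21% (UBE2E1) and 5.79% (UBE2E3), and the highest of their control means was 0.182% (UBE2G1). The mitotic UBE2C and UBE2S and the Fanconi enzyme UBE2T, with UBE2E2 and UBE2F, did not reach the minimum of edited reads. Of the 26 calls, 23 held whichever library was left out. UBE2D1 without fusion library 2 and UBE2G2 without fusion library 1 fell below the minimum of edited reads. So did UBE2D4 without either fusion library or without control library 1, while without control library 2 it was tested and did not pass.

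C-to-U editing with APOBEC1-DDX6 gave another order. Of 27 members tested, 21 rose and 1 fell against APOBEC1 alone, where 52% of 8325 genes rose and 2.73% fell. In uninduced HCT116 lines the median of the mean TPM was 63.1 over 32 members and 13.5 over 16229 genes with at least 1 TPM. Whether this level bears on the share called, here or in other comparisons, was not tested. The median score of the members was 1.64%, against 1.43% over all genes tested, and the library-wide share was 1.32% with the fusion and 0.313% in the control. UBE2J1 led, with 5.49%, 6.73% and 5.46% in the 3 fusion libraries, against 1.37%, 0.369% and 1.04% in controls, a 6.37-fold rise (adjusted p = 1.72e-08). UBE2D1, the lowest of its family with LSM14A-ADAR2dd, was second here, with 6.11%, 5.31% and 3.82%, against 0.243%, 0.515% and 0.811%, a 9.71-fold rise (adjusted p = 1.29e-06). UBE2D2 had 1.22%, 0.753% and 1.54%, against 0.222%, 0.375% and 0.365% (adjusted p = 0.00599), and UBE2D3 had 0.242%, 0.718% and 0.768%, against 0.0530%, 0.0282% and 0.114% (adjusted p = 1.04e-05). All 3 rose, with UBE2D1 above the others in every fusion library. UBE2D4 was not tested, with 1 or 2 edited reads in every library.

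UBE2E2, an E2 with an N-terminal extension, had 6.44%, 3.60% and 4.70% with APOBEC1-DDX6, against 3.10%, 0.810% and 0.866% (adjusted p = 0.00816), and one control library stood close to the fusion. UBE2W had 4.13%, 4.77% and 4.94%, against 0.905%, 0.961% and 0.978% (adjusted p = 6.67e-08). UBE2A had 3.94%, 3.51% and 4.98%, against 0.446%, 0% and 1.1% (adjusted p = 1.83e-07), while UBE2B, first in A-to-I editing, had 2.09%, 2.07% and 2.09%, against 0.183%, 0.346% and 0% (adjusted p = 2.64e-05). The order of these Rad6 orthologues in mean score was thus UBE2A above UBE2B, and their fusion libraries did not overlap. UBE2E1 had 3.02%, 3.38% and 4.65%, against 0.573%, 0.677% and 0.136% (adjusted p = 1.1e-06). UBE2V2 had 2.25%, 2.71% and 2.60%, against 0.268%, 0.206% and 0.10%, a 13.2-fold rise (adjusted p = 8.74e-08), and UBE2N had 1.96%, 1.83% and 1.26%, against 0.0669%, 0.207% and 0.143%, a 12.1-fold rise (adjusted p = 1.29e-07). The K63 pair rose together, and UBE2V2 was above UBE2N in every fusion library.

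At the low end of C-to-U editing, UBE2O, a large hybrid of E2 and E3 (gene at chr17:76389456-76453152, GRCh38.p14), had 0.0419%, 0% and 0.103% with APOBEC1-DDX6, against 0.138%, 0.427% and 0.376% in controls. It fell by 2.58 on the log2 scale (adjusted p = 0.0123), and its groups did not overlap. UBE2S, which extends K11 chains for the anaphase-promoting complex, had 0.131%, 0.346% and 0.108%, against 0.0909%, 0% and 0% (adjusted p = 0.0428). UBE2Q1 had 0.505%, 0.289% and 0.255%, against 0.172%, 0.267% and 0%, which did not pass (adjusted p = 0.169). UBE2L6 had 1.97%, 0.437% and 0.690%, against 0%, 1.00% and 0%, with overlapping groups and no call (adjusted p = 0.172). UBE2K had 3.33%, 3.26% and 3.72%, against 0.197%, 0.165% and 0.206%, an 18.2-fold rise (adjusted p = 1.23e-13). The other members tested, UBE2E3, UBE2F, UBE2G1, UBE2G2, UBE2H, UBE2J2, UBE2L3, UBE2Q2, UBE2R2 and UBE2Z, had mean scores between 0.616% (UBE2J2) and 3.20% (UBE2F), and of these UBE2F, UBE2J2 and UBE2R2 did not pass. Of the 22 calls, 18 held whichever library was left out; UBE2E2, UBE2O, UBE2Q2 and UBE2S lost theirs without at least 1 of the libraries.

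Editing relative to the library-wide share asked whether members moved more than their library did. With LSM14A-ADAR2dd 5 of 26 members were higher and 2 lower on that scale, against 12.6% and 10.8% of all genes tested. UBE2D3 (-2.01 log2, adjusted p = 1.74e-06) and UBE2B (-1.24, adjusted p = 0.0455) were the lower ones, and of the higher ones only UBE2Z had edited control reads (1.58, adjusted p = 0.0122). UBE2D2, UBE2Q1, UBE2M and UBE2A had none. The count of both directions fell to 0 without either fusion library, 1 without control library 1 and 2 without control library 2. TMM scaling of the edited reads gave 7 higher and 1 lower. With APOBEC1-DDX6 6 of 27 were higher and 1 lower, against 11% and 20.3%. UBE2K, a K48-chain enzyme with a UBA domain (2.09 log2, adjusted p = 2.06e-05), UBE2Z (on 2 edited control reads, adjusted p = 4.18e-05) and UBE2O on the lower side (-4.55, adjusted p = 7.12e-05) kept the call whichever library was left out. UBE2G2, UBE2H, UBE2N and UBE2V2 were the other higher ones. The count was 4 without fusion library 2 or without control library 1, and TMM scaling gave 15 higher and 1 lower.

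Cells that carried APOBEC1-DDX6 and LSM14A-ADAR2dd together showed both orders side by side in both lines. For A-to-I editing all 27 members tested rose in HCT116 and all 30 in HEK293T, where 94.8% and 94.5% of all genes tested rose. For C-to-U editing 21 of 27 rose in HCT116, against 50.6% of all genes, and 28 of 30 in HEK293T, against 67.6%. None of the members fell, while 0.639% and 0.0957% of all genes did. Median A-to-I scores of the members were 3.61% in HCT116 and 4.27% in HEK293T, against 4.06% and 4.98% over all genes tested in the same line. Median C-to-U scores were 1.76% and 4.16%, against 1.35% and 2.87% over all genes. Across the 27 members tested in both lines, Spearman's rho of the mean scores was 0.774 for A-to-I and 0.796 for C-to-U. These are descriptions over genes that share sequence and annotation, with separate libraries and controls per line. The C-to-U score was higher in HEK293T than in HCT116 for 27 of 27 members, beside library-wide shares of 2.75% in HEK293T and 1.10% in HCT116. With unfused editors the library-wide C-to-U shares were 0.624% in HEK293T and 0.241% in HCT116. The share of all genes higher in HEK293T was not counted, so this count is not read as particular to E2 mRNAs.

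**Figure D2:**
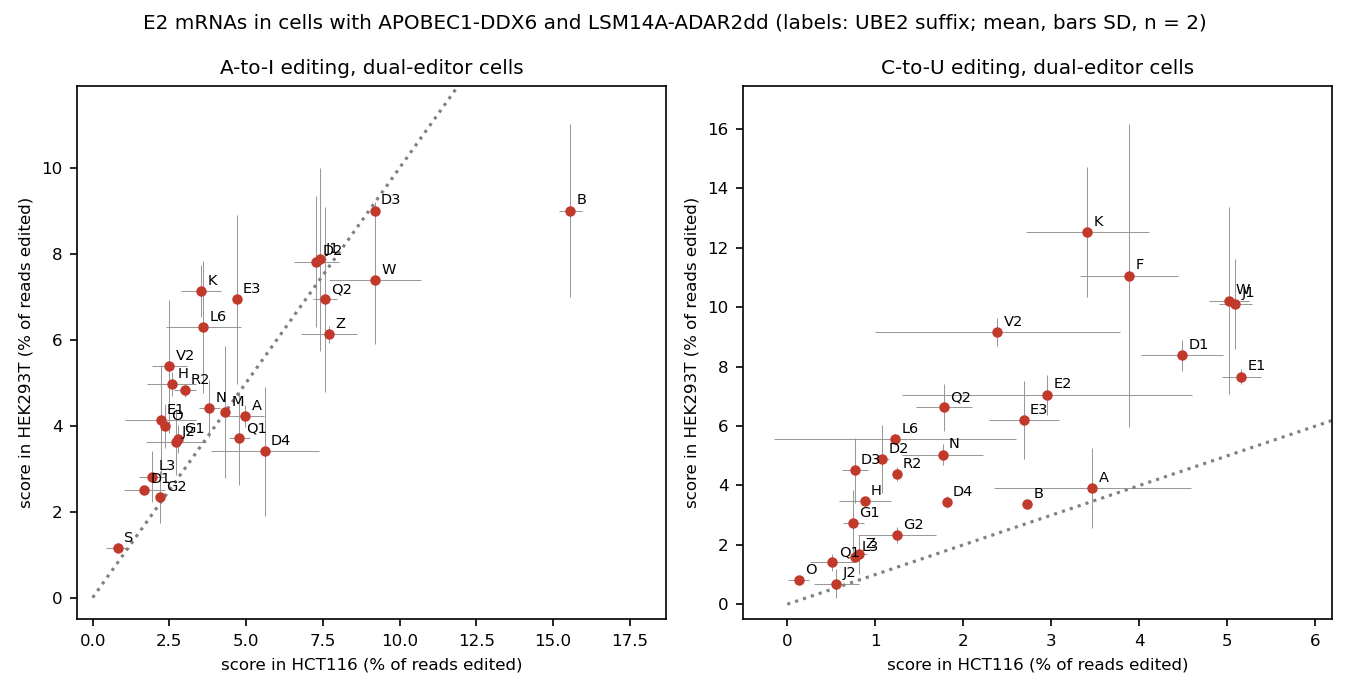
Mean editing scores (percentage of reads edited) of E2 mRNAs tested in both lines, in dual-editor HCT116 (x axis) and HEK293T cells (y axis), with SD bars from 2 libraries per line, labels giving the symbol after UBE2, and a dotted line of equality. A-to-I scores (left) lie around the line with UBE2B far to the right, and the C-to-U scores drawn (right) lie above it.

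UBE2B had A-to-I scores of 15.3% and 15.8% in dual-editor HCT116 cells, against 3.60% and 2.63% with unfused editors, and of 7.58% and 10.4% in HEK293T cells, against 3.05% and 3.25%. UBE2D3 had 9.26% and 9.13% in HCT116, against 1.48% and 1.87%, and 8.87% and 9.15% in HEK293T, against 2.47% and 2.90%. The controls of these members were edited in every library of both lines. UBE2W had A-to-I scores of 8.14% and 10.3% in HCT116, against 0.182% and 0.254%. UBE2N had 4.04% and 3.57% in HCT116, against 0 edited reads in both controls (up to 0.0800%), at least 47.6-fold higher (adjusted p = 8.5e-17). UBE2M had 4.32% and 4.31% in HCT116 and 5.41% and 3.23% in HEK293T, with 0 edited control reads in both lines, at least 43.6-fold and at least 42.3-fold higher. The control libraries of LSM14A-ADAR2dd likewise had no edited UBE2M read.

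The mitotic E2s had the lowest A-to-I scores among the members tested. UBE2S had A-to-I scores of 0.552% and 1.07% in dual-editor HCT116 cells and 0 edited control reads (at least 16.0-fold higher), and 1.07% and 1.24% in HEK293T cells, again with 0 in controls (at least 16.2-fold). UBE2C, which starts chains for the anaphase-promoting complex, was tested in HEK293T alone, with A-to-I scores of 1.57% and 0.591% and C-to-U scores of 0.262% and 1.2%, and 0 edited control reads for either kind. UBE2S and UBE2C lay below the members' median in each library where they were tested. By contrast, UBE2K had C-to-U scores of 11% and 14.1% in HEK293T, against 0.871% and 0.891% in controls, a 14.2-fold rise (adjusted p = 4.72e-10), and of 3.90% and 2.91% in HCT116, against 0.138% and 0.0914%, a 29.8-fold rise (adjusted p = 2.49e-08). UBE2F, a second NEDD8 enzyme, had the next highest mean in HEK293T, 14.7% and 7.46%, but on 75 and 67 reads, against 5.21% and 0% (adjusted p = 0.0448). UBE2E1 led C-to-U editing in HCT116, with 5.31% and 5.0%, against 0.678% and 0%, and UBE2J1 followed with 5.22% and 4.96%, against 0.0919% and 0%. UBE2D1 had 4.82% and 4.16% in HCT116, against 1.57% and 0.730%, and 8.02% and 8.75% in HEK293T, against 0.830% and 2.21%. In both lines UBE2D1 had the highest mean of the 4 UBE2D mRNAs.

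UBE2D3 had C-to-U scores of 0.663% and 0.870% in HCT116, against 0.106% and 0%, and 5.29% and 3.73% in HEK293T, against 0.146% and 0.229%. UBE2D2 had 1.03% and 1.13% in HCT116, against 0% and 0.166%, and 5.71% and 4.09% in HEK293T, against 0.519% and 1.36%. UBE2V2 had 3.37% and 1.40% in HCT116, against 0.0835% and 0.157%, and 9.49% and 8.83% in HEK293T, against 1.3% and 1.24%. These members passed in both lines. Low C-to-U scores did not all pass. UBE2O had 0.215% and 0.0433% in HCT116, against 0.0608% and 0.163% (adjusted p = 0.909), and UBE2J2, an ER-membrane E2, had 0.355% and 1.04% in HEK293T, against 0.612% and 0.845% (adjusted p = 0.911). UBE2O did rise in HEK293T, with 0.816% and 0.831%, against 0.396% and 0.157% (adjusted p = 0.0453). In the C-to-U fit 16 of 21 calls in HCT116 and 15 of 28 in HEK293T held whichever library was left out, and the HEK293T count was 17 without fusion library 1. For A-to-I these were 25 of 27 and 24 of 30. Members that lost a C-to-U call included UBE2E2, UBE2F, UBE2G1 and UBE2R2 in HCT116, and UBE2B, UBE2C, UBE2D1, UBE2D2, UBE2D4, UBE2E2, UBE2F, UBE2G1, UBE2L3, UBE2M, UBE2O, UBE2Q1 and UBE2S in HEK293T. Those that lost an A-to-I call were UBE2D1 and UBE2E1 in HCT116, and UBE2C, UBE2D1, UBE2D4, UBE2E2, UBE2L6 and UBE2T in HEK293T.

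Of the remaining UBE2D mRNAs, UBE2D1 had A-to-I scores of 1.69% ± 0.669 in HCT116, against 0.253% in its control, and 2.52% ± 0.0224 in HEK293T, against 0.207% (mean ± SD, n = 2 each). UBE2D2 had 7.29% ± 0.737 in HCT116, against 0.625% in its control, and 7.82% ± 1.52 in HEK293T, against 1.35%. UBE2D4 had 5.61% ± 1.76 in HCT116, against 0.406% in its control, and 3.41% ± 1.5 in HEK293T, against 0.835%. UBE2D1 thus had the lowest A-to-I mean of the family in both lines, the opposite of its place in C-to-U editing, though in HEK293T it lay within 1 SD of UBE2D4. UBE2V2 had A-to-I scores of 2.50% ± 0.577 in HCT116, against 0.120% in its control, and 5.38% ± 1.55 in HEK293T, against 0.291%, and UBE2N had 4.41% ± 0.666 in HEK293T, against 0.0719%. UBE2L6 had 3.61% ± 1.22 in HCT116, against 0.312% in its control, and 6.30% ± 1.54 in HEK293T, against 1.1%. All of these passed, but in HEK293T the calls of UBE2D1, UBE2D4 and UBE2L6 were each lost without 3 of the 4 libraries in turn and with DESeq2 (adjusted p = 0.0552, 0.141 and 0.111). In HCT116 the UBE2D1 call was lost without fusion library 1 and with DESeq2 (adjusted p = 0.0516). For C-to-U editing, UBE2N had 1.76% ± 0.458 in HCT116, against 0.0563% in its control, and 5.04% ± 0.349 in HEK293T, against 0.367%. It passed in both lines, while UBE2L6, with 1.22% ± 1.38 in HCT116, against 0.479% in its control, and 5.55% ± 0.190 in HEK293T, against 1.78%, passed in neither (adjusted p = 0.35 and 0.0834). UBE2D4 had 1.81% ± 0.00928 in HCT116, against 0.785% in its control, and 3.43% ± 0.202 in HEK293T, against 0.812%, and passed in HEK293T alone (adjusted p = 0.306 in HCT116 and 0.0399 in HEK293T), though the difference between the lines was not tested. That HEK293T call was lost without any 1 of the 4 libraries (adjusted p = 0.0527 to 0.125) and with DESeq2 (adjusted p = 0.229). UBE2M had 0.566% ± 0.458 in HEK293T, against 0% (adjusted p = 0.00172), and UBE2Q1 had 0.513% ± 0.252 in HCT116, against 0.248% (adjusted p = 0.25). UBE2S had C-to-U scores of 0.465% ± 0.218 in HEK293T, against 0 edited control reads, the lowest mean of the 30 members tested (adjusted p = 0.000534).

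The ER-membrane E2 UBE2J1 was high for both kinds of edit, with A-to-I scores of 7.40% ± 0.190 in HCT116, against 0.438% in its control, and 7.87% ± 2.12 in HEK293T, against 0.453%, and C-to-U scores of 10.1% ± 1.52 in HEK293T, against 2.64%. So was UBE2W, with C-to-U scores of 5.02% ± 0.227 in HCT116, against 0.130% in its control, and 10.2% ± 3.15 in HEK293T, against 1.90%, and an A-to-I score of 7.38% ± 1.49 in HEK293T, against 0.649%. UBE2Z, charged by UBA6, was high for A-to-I editing, with 7.70% ± 0.916 in HCT116, against 0.233%. There its C-to-U mean was 0.817%, against 0.0399%. UBE2Q2 had an A-to-I score of 7.58% ± 0.397 in HCT116, against 0.892%, and UBE2K of 7.14% ± 0.611 in HEK293T, against 0.608%. Low A-to-I scores were those of UBE2L3, with 1.94% ± 0.427 in HCT116, against 0.0760%, and UBE2T, with 1.79% ± 0.0746 in HEK293T, against 0.478%. All of these passed. For C-to-U editing in HCT116, UBE2F had 3.88% ± 0.558, against 0.311%, UBE2A had 3.46% ± 1.12, against 0.0759%, and both passed, while UBE2J2, with 0.557% ± 0.259, against 0.160%, did not (adjusted p = 0.118).

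Relative to the library-wide share, UBE2B and UBE2D3 were again lower for A-to-I editing: UBE2B at -1.83 log2 in HCT116 (adjusted p = 9.49e-05) and -2.26 in HEK293T (adjusted p = 0.00321), UBE2D3 at -1.72 in HCT116 (adjusted p = 3.55e-07) and -2.02 in HEK293T (adjusted p = 9.99e-07). The counts were 4 higher and 2 lower in HCT116, against 11.8% and 10.2% of all genes, and 2 and 3 in HEK293T, against 8.72% and 5.98%. TMM scaling gave 10 higher and 2 lower in HCT116 and 4 and 3 in HEK293T. For C-to-U editing they were 6 and 0 in HCT116, against 11.2% and 13.2%, and 5 and 1 in HEK293T, against 6.23% and 4.85%. UBE2K was higher in both lines, by 2.7 log2 in HCT116 (adjusted p = 0.0043) and 1.68 in HEK293T (adjusted p = 0.000735), and UBE2J2 was the lower member in HEK293T (-2.20, adjusted p = 0.0448). TMM scaling gave 14 higher and 0 lower in HCT116, and 7 and 0 in HEK293T. In these 4 comparisons the count was 0 without either fusion library. It was 2 without control library 2 for A-to-I in HCT116, 11 without control library 1 for C-to-U in HCT116, 3 without control library 1 for A-to-I in HEK293T and 3 without control library 2 for C-to-U in HEK293T.

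Other ADAR2dd fusions share the ADAR2dd control, so their counts are not independent of one another. With 4E-T-ADAR2dd all 27 members tested rose, against 87.9% of all genes. UBE2B had 9.86% and 12.2%, against 1.21% and 2.07% with ADAR2dd alone, and UBE2E3 had 8.36% and 8.58%, against 0% and 0.0990%. PATL1-ADAR2dd raised 18 of 22 (background 60.3%), DDX6-ADAR2dd 10 of 13 (49.2%), ADAR2dd-DDX6 8 of 13 (46.1%) and ADAR2dd-LSM14A 6 of 11 (21.9%). The count for PATL1-ADAR2dd was 10 without fusion library 2, that for DDX6-ADAR2dd 5 without fusion library 1, that for ADAR2dd-DDX6 5 without fusion library 2, and that for ADAR2dd-LSM14A 2 without fusion library 1. UBE2B was first in these 4, with 7.73% and 7.84% in PATL1-ADAR2dd, 15.4% and 9.92% in DDX6-ADAR2dd, 13.7% and 13.6% in ADAR2dd-DDX6 and 5.25% and 3.64% in ADAR2dd-LSM14A cells. UBE2D3 was second in each, with 3.99% and 4.20% in PATL1-ADAR2dd, 3.79% and 3.96% in DDX6-ADAR2dd, 4.35% and 3.40% in ADAR2dd-DDX6 and 3.05% and 2.51% in ADAR2dd-LSM14A cells, against 1.27% and 1.2% in the control. UBE2D3 and UBE2Z kept their calls with ADAR2dd-LSM14A whichever library was left out.

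The remaining ADAR2dd fusions called few members. ADAR2dd-EDC3 raised 2 of 8 (background 12.3%), ADAR2dd-4E-T 2 of 11 (4.84%), EDC3-ADAR2dd 2 of 7 (4.98%) and ADAR2dd-PATL1 1 of 8 (1.47%). UBE2B and UBE2D3 had the highest means in all 4, at 4.03% and 2.07% with ADAR2dd-EDC3, 4.18% and 1.62% with ADAR2dd-4E-T, 2.96% and 1.61% with EDC3-ADAR2dd, and 2.28% and 2.44% with ADAR2dd-PATL1. Of these, UBE2D3 passed with ADAR2dd-EDC3 (adjusted p = 0.0158) and with ADAR2dd-PATL1 (adjusted p = 0.016). The ADAR2dd-EDC3 and ADAR2dd-4E-T counts were 0 without either control library and the ADAR2dd-4E-T count was 1 without fusion library 1. The EDC3-ADAR2dd count was 0 without either fusion library or without control library 2 and 1 without control library 1.

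Other APOBEC1 fusions share the APOBEC1 control in the same way. LSM14A-APOBEC1 raised 10 of 26 members and lowered 1, where 27.9% and 2.09% of all genes did so. APOBEC1-PATL1 raised 12 of 26 (23.4%), 4E-T-APOBEC1 raised 9 of 24 and lowered 1 (18.8% and 2.05%), and APOBEC1-4E-T raised 3 of 24 (5.05%). UBE2W was first with LSM14A-APOBEC1 at 5.71% and 5.70% and with APOBEC1-PATL1 at 5.66% and 4.15%, against 0.905%, 0.961% and 0.978% in controls. UBE2E2 was second with LSM14A-APOBEC1 at 3.31% and 3.21%, which did not pass (adjusted p = 0.21), and UBE2Q2 second with APOBEC1-PATL1 at 3.14% and 2.67% (adjusted p = 0.025). UBE2D1 led with 4E-T-APOBEC1 at 4.33% and 3.02% (adjusted p = 0.00253), followed by UBE2W at 3.20% and 2.51%, and UBE2W led with APOBEC1-4E-T at 3.04% and 1.94% (adjusted p = 0.0186), followed by UBE2F at 2.45% and 2.27%. UBE2O was the member that fell with LSM14A-APOBEC1, at 0% and 0%, and with 4E-T-APOBEC1, at 0.0412% and 0.0386%, against 0.138%, 0.427% and 0.376% in controls (adjusted p = 0.00646 and 0.0315). Its 3 low values with LSM14A-APOBEC1, 4E-T-APOBEC1 and APOBEC1-DDX6 are set against the same 3 control libraries. UBE2O was not low with every fusion. Its mean was 0.549% with PATL1-APOBEC1, and the single APOBEC1-LSM14A library had 1.51%, 11 of 729 reads. The other APOBEC1 fusions with more than 1 library had UBE2O means from 0% (LSM14A-APOBEC1) to 0.140% (DDX6-APOBEC1). The LSM14A-APOBEC1 count of both directions was 4 without fusion library 1, 7 without fusion library 2, 5 without control library 1 and 7 without control library 2. The APOBEC1-PATL1 count was 5 without either fusion library. The 4E-T-APOBEC1 count was 3 without fusion library 1, 4 without fusion library 2 and 6 without control library 3. The APOBEC1-4E-T count was 1 without fusion library 1 or without any 1 of the control libraries. UBE2K kept its call in all 4 whichever library was left out.

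DCP2, the catalytic decapping subunit, was joined to APOBEC1 as DCP2-APOBEC1, which lowered 3 of 13 members and raised none, while 7.03% of all genes fell and 0.927% rose. These were UBE2K at 0% and 0%, against 0.197%, 0.165% and 0.206% (adjusted p = 0.0136), UBE2J1 at 0.104% and 0.166%, against 1.37%, 0.369% and 1.04% (adjusted p = 0.033), and UBE2W at 0.129% and 0.213%, against 0.905%, 0.961% and 0.978% (adjusted p = 0.0399). All 3 calls were lost without either fusion library, and 1 was left without control library 1 or without control library 3. The library-wide share was 0.186% with DCP2-APOBEC1 and 0.313% in the control. UBE2Q2 had the highest score there, 1.21% and 1.00%. edgeR called 0 members with DDX6-APOBEC1 (of 18), PATL1-APOBEC1 (of 20), EDC3-APOBEC1 (of 18) and EDC4-APOBEC1 (of 20), and so did DESeq2 and limma. At edgeR's adjusted p below 0.05, 1.7%, 0.51%, 0.859% and 1.09% of all genes rose in that order of fusions. At an unadjusted p under 0.05, in either direction, the members numbered 2, 5, 1 and 3. The share of all genes at that unadjusted threshold was not counted. The highest members were UBE2E2 with DDX6-APOBEC1 (2.49%), with PATL1-APOBEC1 (2.91%) and with EDC3-APOBEC1 (1.86%), and UBE2J1 with EDC4-APOBEC1 (1.66%). In the 7 fusions with a single library, which allow no test, median scores over 31 members ran from 0.0283% to 0.427% with APOBEC-EDC3. The table of the lowest median has columns named for CNOT1-R-APOBEC1 but is attached to the sample titled CNOT10-APOBEC1, so which of the fusions it holds is not settled. The HCT116 dual set labelled illumina raised all 28 members for A-to-I (background 92.2%), led by UBE2B at 12.3% and 13.5%, against 2.89% and 2.11% in its control, and UBE2D2 at 10.4% and 9.58%, against 0.625% and 0.962%. For C-to-U it raised 20 of 26 (49%), led by UBE2D1 at 5.71% and 5.84%, against 0.796% and 1.1%, and UBE2W at 6.03% and 4.73%, against 0.0899% and 0.274%. That C-to-U count was 0 without either fusion library.

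The LSM14A-TRIBE-ID time course, in which rapamycin induces the tethering of the editor, showed how fast E2 mRNAs gained edits in HEK293T cells. Against 0 min, 5 of 18 members tested were higher at 15 min (background 16.8%), 18 of 24 at 30 min (56.9%), 20 of 26 at 60 min (79.7%) and 26 of 27 at 120 min (86.6%). All times share the 0 min libraries. The 5 members called at 15 min were UBE2B, UBE2G2, UBE2Z, UBE2K and UBE2O. Over the 31 members with 20 reads at every time, the median score was 0.267% at 0, 0.677% at 15, 1.12% at 30, 2.20% at 60 and 3.78% at 120 min. The mean score was higher at every step for 18 of them and was highest at 120 min for 24. All genes were not counted in this way, so these counts are not read as particular to E2 mRNAs. The library-wide share was 0.822% at 0, 1.37% at 15, 2.17% at 30, 3.59% at 60 and 5.66% at 120 min.

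**Figure D3:**
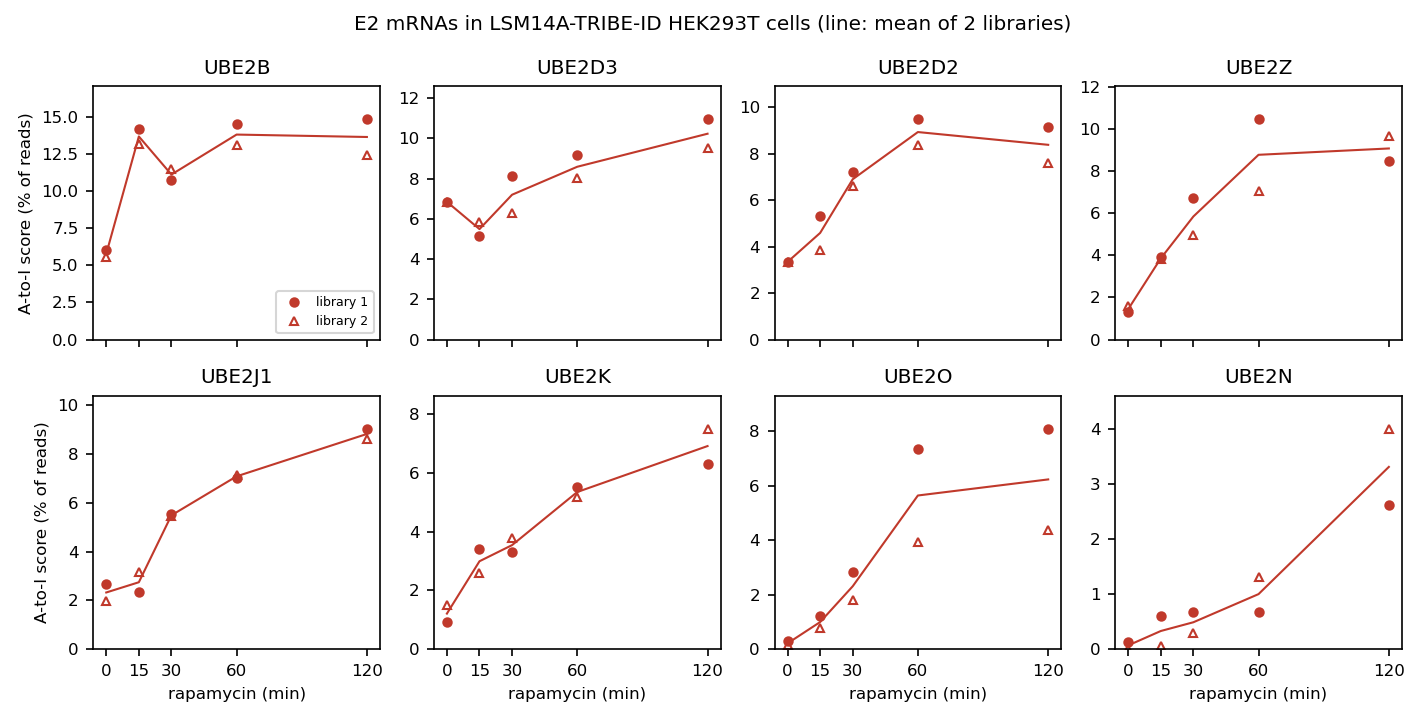
A-to-I scores (percentage of reads edited, y axis) of 8 E2 mRNAs against minutes of rapamycin (x axis) in LSM14A-TRIBE-ID HEK293T cells, with 1 point per library and a line through the mean of 2. UBE2B is higher at 15 min than at 30 min and has no further climb beyond its 15 min values, UBE2J1, UBE2K, UBE2O and UBE2N climb to 120 min, and UBE2D3 starts high.

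UBE2B had 6.03% and 5.53% at 0 min, 14.2% and 13.2% at 15 min, 10.7% and 11.5% at 30 min, 14.5% and 13.1% at 60 min and 14.9% and 12.4% at 120 min, so its later libraries lay at or below those of 15 min, apart from library 1 at 60 and 120 min. UBE2D3 had 6.83% and 6.86% at 0 min, 5.14% and 5.84% at 15 min, 8.11% and 6.29% at 30 min, 9.16% and 8.02% at 60 min and 11% and 9.5% at 120 min, and first passed at 120 min (adjusted p = 0.0104). That UBE2D3 call was lost with DESeq2 (adjusted p = 0.281). UBE2O, low in C-to-U editing with APOBEC1-DDX6, had 0.279% and 0.143% at 0 min and 1.21% and 0.777% at 15 min. It then had 2.82% and 1.80% at 30 min, 7.36% and 3.92% at 60 min and 8.10% and 4.37% at 120 min. That was a 29.5-fold rise at 120 min (adjusted p = 3.08e-06). Its library 1 was above library 2 at all 5 times, as was the library-wide share. UBE2N had 0.134% and 0% at 0 min, 0.602% and 0.0546% at 15 min, 0.681% and 0.294% at 30 min, 0.682% and 1.32% at 60 min and 2.61% and 4.01% at 120 min, with most of its rise in the last hour. UBE2Z had 1.29% and 1.61% at 0 min, 3.91% and 3.81% at 15 min and 8.47% and 9.70% at 120 min. Both of its 15 min libraries lay above both 0 min libraries.

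At 120 min, UBE2J1 had 9.05% and 8.61%, against 2.67% and 1.98% at 0 min (adjusted p = 0.000156). UBE2D4 had 9.43% and 7.77%, against 1.79% and 2.58% at 0 min (adjusted p = 0.00371), and UBE2D2 had 9.16% and 7.60%, against 3.34% and 3.34% (adjusted p = 0.000702). These were among the 6 highest, with UBE2B, UBE2D3 and UBE2Z. UBE2M had 5.07% and 4.02%, against 0.521% and 0% (adjusted p = 8.25e-05), and UBE2V2 had 2.36% and 1.75%, against 0.303% and 0.211% (adjusted p = 0.000472). The NEDD8 carrier and the K63 partner thus both passed. The lowest were UBE2S at 0.617% and 0.531%, against 0.122% and 0.0337% (adjusted p = 0.00242), UBE2C at 0.716% and 0.479%, against 0 edited reads at 0 min (adjusted p = 0.00387), UBE2E1 at 0.932% and 0.681%, against 0.0633% and 0% (adjusted p = 0.00234), and UBE2T at 1.14% and 0.949%, against 0.353% and 0.242%, which did not pass (adjusted p = 0.053). UBE2W had 10 edited of 114 reads in library 1 and 0 of 106 in library 2, against 0.613% and 0% at 0 min, and its call (adjusted p = 0.0287) rests on library 1. Relative to the library-wide share, 6 members were higher and 5 lower, against 18.3% and 8.66% of all genes. UBE2D3 (-2.20 log2, adjusted p = 1.04e-06), UBE2D2 (-1.45, adjusted p = 0.000539) and UBE2G2 (-1.69, adjusted p = 7.09e-05) stayed lower whichever library was left out. That count was 3 without library 1 and 4 without library 2 of 120 min. The calls at 15 min numbered 0 without library 1 and 1 without library 2 of that time and 3 without library 2 of 0 min, and those at 30 min 8 without library 1 and 10 without library 2. With the replicate number as a block, UBE2V2 lost its call at 30 min, leaving 17, and no other call against 0 min was lost. At 120 min DESeq2 called 20 members, against 26 with edgeR. UBE2B, UBE2C, UBE2D3, UBE2E1, UBE2Q2 and UBE2W lost their 120 min calls without at least 1 of the libraries.

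The DDX6-STAMP-ID time course gave no called member. edgeR, DESeq2 and limma each called 0 of 24 at 15 min, 0 of 24 at 30 min and 0 of 26 at 120 min. Of all genes, edgeR called 0.0159%, 0.0321% and 0% higher in that order of times. At an unadjusted p under 0.05, in either direction, edgeR had 2, 1 and 3 members. The share of all genes at that unadjusted threshold was not counted. Library-wide shares were 0.560% at 0 min and 0.586% at 120 min. UBE2F had 2.97% and 3.70% at 120 min, against 3.19% and 3.77% at 0 min, and UBE2E3 had 3.17% and 3.08%, against 4.36% and 3.88%. UBE2J1, high in the fused editor, had 1.43% and 1.72%, against 1.52% and 1.52%, and UBE2D1 had 1.2% and 3.24%, against 3.22% and 1.79%. The libraries of UBE2F, UBE2J1 and UBE2D1 at 120 min overlapped those at 0 min, and both UBE2E3 libraries at 120 min lay below them. Relative to the library-wide share edgeR called 0 as well, with 3 at an unadjusted p under 0.05.

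The level of the mRNAs themselves was read from the 4 uninduced HCT116 lines. Of 36 members, 32 had a mean of at least 1 TPM over the 10 libraries, and UBE2L2, UBE2L4, UBE2L5 and UBE2U had at most 0.645 TPM in any. The highest on this per-length scale were UBE2S at 214 to 553 TPM, UBE2M at 135 to 289, UBE2H, a partner of the CTLH ligase, at 160.4 to 213, and UBE2C at 78.9 to 282. UBE2S was the highest of the 4 in every library, while the ranges of the other 3 overlap, so their order holds for the means only. In bulk RNA, fewer cells of a kind and less RNA per cell cannot be told apart. The lowest of the 32 were UBE2V1 at 2.66 to 6.90 TPM, UBE2D4 at 5.53 to 9.08, UBE2F at 6.61 to 9.30 and UBE2E2 at 11.5 to 24.6. Against the APOBEC1 line, 12 of 32 members were higher and 5 lower in the APOBEC1-DDX6 line, where limma called 23.6% and 20.2% of 16229 genes. In the ADAR2dd line 20 were higher and 3 lower (background 39.2% and 21.2%), and in the line with both unfused editors 16 and 5 (39.6% and 17.1%). The 3 comparisons share the APOBEC1 line.

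The cell-cycle E2s were among the members with the largest differences between these lines. UBE2C had 136, 147 and 137 TPM in the APOBEC1-DDX6 line, 278 and 282 in the ADAR2dd line and 196 and 198 in the line with both editors, against 83.0, 78.9 and 81.6 in the APOBEC1 line. The difference on the log2(TPM + 1) scale was 0.78 ± 0.03 (SE), 1.77 ± 0.04 and 1.27 ± 0.04, in that order of lines (limma's adjusted p = 2.08e-07, 1.68e-09 and 2.27e-08). No library of the other lines overlapped the APOBEC1 line. UBE2S had 342, 326 and 333 TPM in the APOBEC1-DDX6 line, 524 and 553 in the ADAR2dd line and 371 and 375 with both editors, against 214, 219 and 219 in the APOBEC1 line. UBE2T, the FANCL partner in crosslink repair, had 69.3, 68.3 and 68.4 in the APOBEC1-DDX6 line, 108 and 109 in the ADAR2dd line and 101 and 92.0 with both editors, against 41.2, 40.2 and 40.4 in the APOBEC1 line. Differences were 0.62 ± 0.03, 1.30 ± 0.03 and 0.78 ± 0.03 for UBE2S and 0.74 ± 0.03, 1.39 ± 0.04 and 1.23 ± 0.04 for UBE2T. UBE2M followed the same order, at 0.27 ± 0.04, 1.06 ± 0.04 and 0.67 ± 0.04. These 4 genes were higher in all 3 lines in each leave-one-out fit.

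The promoters of UBE2S and UBE2T are shown because these are cell-cycle E2s whose mRNA was higher than in the APOBEC1 line in all 3 other lines. UBE2C, UBE2M, UBE2N, UBE2A and UBE2D2 were called higher in all 3 as well. Each covers the stretch from 250 bases before the start site to 50 after it (RefSeq, GRCh38.p14, minus strand). UBE2S lies at chr19:55407739-55408038 and UBE2T at chr1:202341887-202342186. Capitals mark CCAAT and TTTGAA on either strand (ATTGG and TTCAAA on the other), letters known from cell-cycle promoters.
UBE2S: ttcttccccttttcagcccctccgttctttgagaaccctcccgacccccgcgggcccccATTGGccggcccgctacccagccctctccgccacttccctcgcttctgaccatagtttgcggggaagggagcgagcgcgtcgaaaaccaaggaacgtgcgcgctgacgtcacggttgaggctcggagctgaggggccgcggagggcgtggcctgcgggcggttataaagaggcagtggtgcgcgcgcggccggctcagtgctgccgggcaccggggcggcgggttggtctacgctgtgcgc
UBE2T: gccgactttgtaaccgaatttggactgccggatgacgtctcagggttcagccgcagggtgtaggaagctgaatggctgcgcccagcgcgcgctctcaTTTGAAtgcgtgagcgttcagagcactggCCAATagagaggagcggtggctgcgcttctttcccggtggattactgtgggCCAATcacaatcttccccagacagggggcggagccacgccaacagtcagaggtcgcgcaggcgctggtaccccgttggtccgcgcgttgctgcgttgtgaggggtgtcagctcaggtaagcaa
UBE2S holds 1 CCAAT and 0 TTTGAA, and UBE2T 2 and 1. Over all 35116 RefSeq promoters, 34.6% hold CCAAT and 15.2% TTTGAA on either strand. Counted by gene, 9 of 26 E2 genes with a promoter in the table hold CCAAT, against 10846 of 27305 genes.

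Among other called members, UBE2L6 had 49.8, 50.7 and 48.7 TPM in the APOBEC1-DDX6 line, 27.2 and 29.9 in the ADAR2dd line and 35.0 and 33.2 with both editors, against 32.6, 31.6 and 32.7 in the APOBEC1 line, so it rose in the first (0.61 ± 0.04, adjusted p = 4.46e-06) and fell in the second (-0.17 ± 0.04, adjusted p = 0.00843). UBE2L3 had 173, 173 and 170.5 in the APOBEC1-DDX6 line, 148 and 153 in the ADAR2dd line and 107 and 104 with both editors, against 110.2, 109.6 and 108 in the APOBEC1 line (0.65 ± 0.02, 0.46 ± 0.02 and -0.05 ± 0.02, the last without a call). UBE2E2 differed by -0.47 ± 0.05 in the APOBEC1-DDX6 line, 0.24 ± 0.06 in the ADAR2dd line and 0.44 ± 0.06 in the line with both editors. UBE2Q2 was called in the APOBEC1-DDX6 line (0.43 ± 0.05) and in neither of the others. In the APOBEC1-DDX6 line the further calls were UBE2H (0.18 ± 0.02), UBE2N (0.25 ± 0.03), UBE2A, UBE2D2 and UBE2Z on the higher side and UBE2D1, UBE2D3, UBE2R2 and UBE2V2 on the lower, the last 7 between -0.18 and 0.14. Each of these 7 was lost without at least 1 of the libraries, and the other 10 calls held. The further calls in the ADAR2dd line were mostly rises. UBE2J2 (0.66 ± 0.06), UBE2K (0.59 ± 0.04), UBE2N (0.59 ± 0.03), UBE2V2 (0.58 ± 0.07), UBE2A (0.57 ± 0.05) and UBE2D2 (0.56 ± 0.03) were the larger ones. UBE2B, UBE2G2, UBE2E3, UBE2G1, UBE2D3, UBE2Q1 and UBE2Z lay between 0.22 (UBE2Z) and 0.35 (UBE2B). UBE2H (-0.22 ± 0.02) and UBE2R2 (-0.12 ± 0.04) fell there with UBE2L6. Of the 23 calls, those of UBE2L6 and UBE2R2 were lost in at least 1 leave-one-out fit. In the line with both editors, UBE2B (0.47 ± 0.05), UBE2V1 (0.44 ± 0.15), UBE2D2 (0.35 ± 0.03) and UBE2V2 (0.34 ± 0.07) led the further rises. UBE2J2, UBE2K, UBE2W, UBE2E3, UBE2A and UBE2N lay between 0.14 (UBE2N) and 0.27 (UBE2J2). The falls were UBE2D4 (-0.46 ± 0.09), UBE2O (-0.26 ± 0.04), UBE2Q1 (-0.22 ± 0.04), UBE2J1 (-0.19 ± 0.05) and UBE2D1 (-0.18 ± 0.07). Of the 21 calls, 16 held in each leave-one-out fit, and UBE2A, UBE2D1, UBE2J1, UBE2V1 and UBE2W did not.

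**Figure D4:**
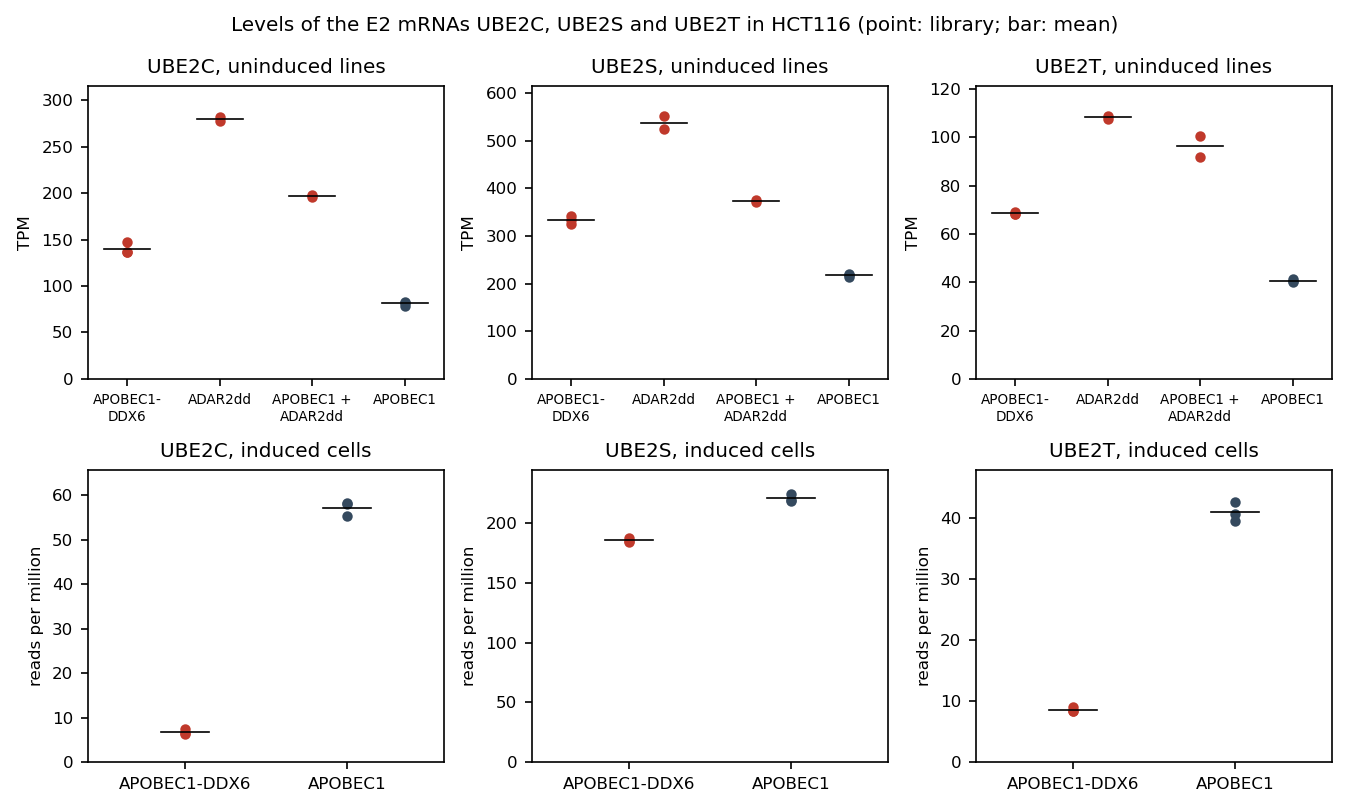
Levels of UBE2C, UBE2S and UBE2T in HCT116, 1 point per library with a bar at the mean: TPM of uninduced lines (top) and RPM of induced cells (bottom). In uninduced cells the APOBEC1-DDX6 points lie above the APOBEC1 points, and in induced cells they lie below.

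In induced cells UBE2C, UBE2T and UBE2S were lower with APOBEC1-DDX6 than with APOBEC1 alone. In RPM, a gene's reads scaled to a common library total, UBE2C had 7.53, 6.57 and 6.27 with APOBEC1-DDX6, against 58.0, 55.4 and 58.3 with APOBEC1 alone, and fell by 3.18 on the log2 scale (adjusted p = 1.21e-108). UBE2T had 8.49, 9.07 and 8.36, against 42.7, 39.6 and 40.6, and fell by 2.36 (adjusted p = 2.69e-79), and UBE2S had 184, 188 and 185, against 224, 219 and 218, and fell by 0.37 (adjusted p = 6.35e-29). Reads of 28 of 31 members passed, 11 higher and 17 lower, where 41.9% and 41.5% of all genes did. These log2 changes use TMM scaling and lie below those of the plain RPM, by which UBE2S changed by -0.25 and UBE2C by -3.07. The largest rise was UBE2Q2, with 55.6, 57.2 and 54.1, against 35.9, 33.1 and 30.2 (0.63 log2, adjusted p = 8.5e-22). With LSM14A-ADAR2dd, 3 of 31 members were higher and 6 lower, against 14.1% and 13% of all genes. The largest falls were again UBE2C, with 17.6 and 18.3 RPM, against 29.3 and 26.4 (adjusted p = 0.000642), and UBE2S, with 155 and 166, against 223 and 232 (adjusted p = 3.25e-05), followed by UBE2T. UBE2B rose, with 77.5 and 61.9, against 50.6 and 53.1 (adjusted p = 0.00197). Of these 9 calls, UBE2B, UBE2C and UBE2S held whichever library was left out, and the count was 3 without control library 2 and 4 without control library 1.

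Most E2 mRNAs had a higher translation efficiency without DDX6 in HCT116, and the differences were smaller in HEK293T. The values are the authors' log2 ratios, 1 per genotype and line, so they have no replicate check. In HCT116 the DDX6-KO value was above the wild-type value for 28 of 33 members, where 70.9% of 20041 genes were. It was at least 0.5 higher for 15, where 23.5% of genes were. The median difference was 0.47 over members and 0.16 over all genes. Over the 14974 genes with a mean uninduced TPM of at least 1, which hold 32 of the 33 members, 76.4% were above 0, 29.3% were at least 0.5 higher and the median was 0.25. In HEK293T it was 0.17 and 0.02, with 26 of 33 members above 0 (background 54.1%) and 1 at least 0.5 higher (7.75%). The 26 include UBE2U, whose difference was 0.00027. The HEK293T background was not limited by expression, since the TPM are of HCT116 lines.

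The largest differences in HCT116 were those of UBE2G1, UBE2H, UBE2K and UBE2R2. UBE2J2, in the same role group as UBE2G1, UBE2K and UBE2R2, differed by 0.10. UBE2G1, a K48-chain partner of cullin-RING ligases, had 0.62 in DDX6-KO cells and -0.51 in wild-type cells, a difference of 1.13. UBE2H had 0.19 in DDX6-KO cells and -0.81 in wild-type cells (1.01), UBE2K had 0.57 in DDX6-KO cells and -0.31 in wild-type cells (0.88), and UBE2R2, a paralogue of CDC34, had 0.54 in DDX6-KO cells and -0.33 in wild-type cells (0.87). The smallest were UBE2C, with 0.89 in DDX6-KO cells and 1.06 in wild-type cells (-0.16), UBE2S, with 0.86 in DDX6-KO cells and 0.97 in wild-type cells (-0.11), UBE2L6, with 0.62 in DDX6-KO cells and 0.71 in wild-type cells (-0.09), and UBE2L5 (-0.09). UBE2L5 had at most 0.199 TPM in any uninduced HCT116 library, so its value lies near the floor. UBE2C and UBE2S thus had lower DDX6-KO than wild-type values. In HEK293T the largest were UBE2D1, with 2.30 in DDX6-KO cells and 1.71 in wild-type cells (0.59), UBE2J1, with 1.43 in DDX6-KO cells and 0.94 in wild-type cells (0.49), UBE2Q2 (0.45) and UBE2V2 (0.42). The smallest were UBE2O, with -1.84 in DDX6-KO cells and -1.52 in wild-type cells (-0.32), UBE2D4 (-0.16), UBE2M (-0.09) and UBE2S (-0.08). UBE2O had a positive difference in HCT116 (0.51), so its sign differed between the lines.

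**Figure D5:**
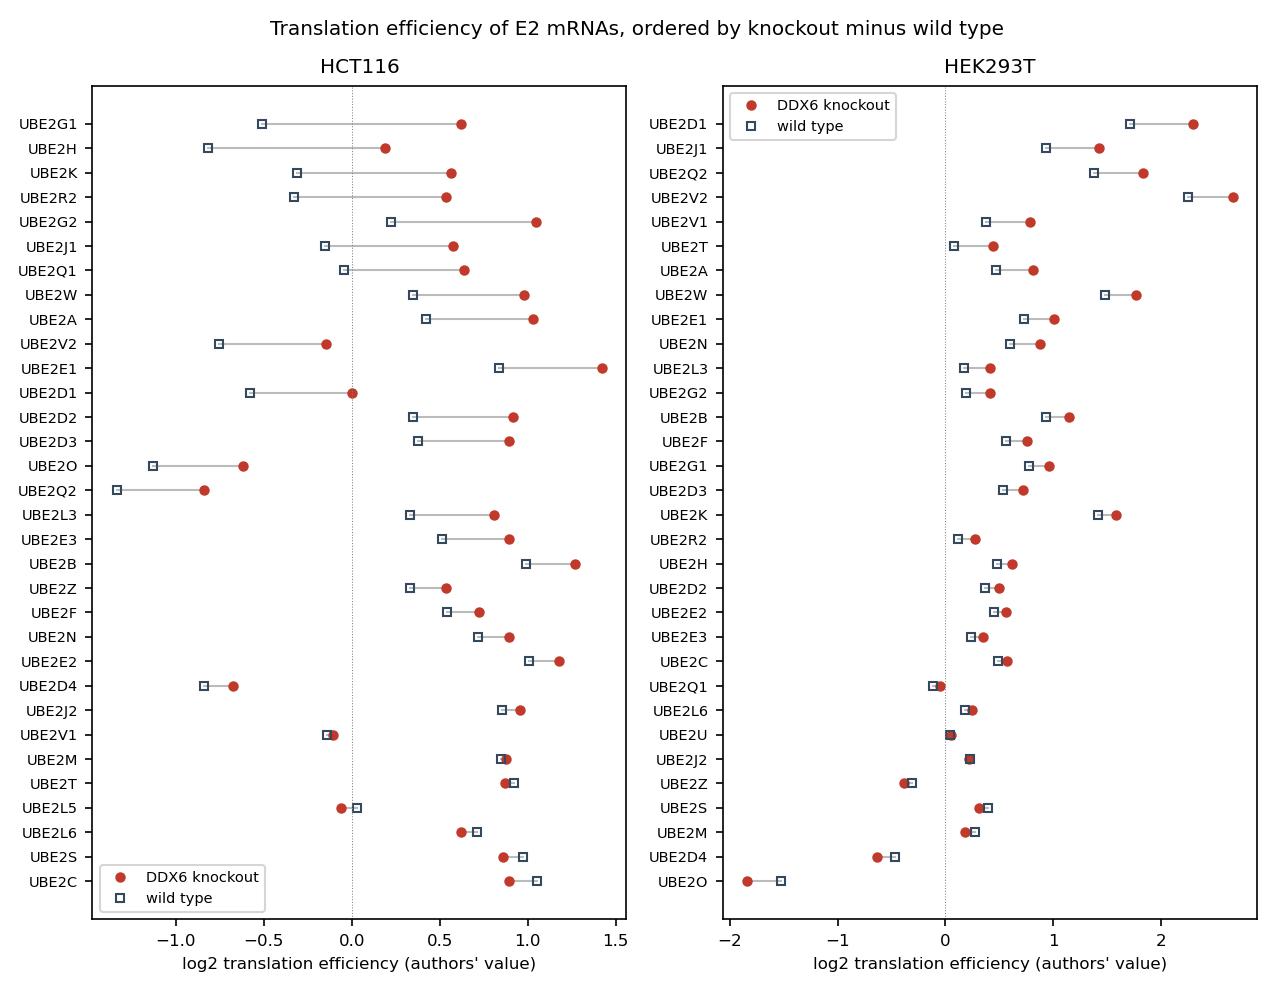
Log2 translation efficiency (x axis, the authors' value, 1 per genotype) of E2 mRNAs in DDX6-KO (filled) and wild-type (open) cells of HCT116 (left) and HEK293T (right), ordered by the difference. In HCT116 the filled point lies to the right for most members drawn, with UBE2G1 and UBE2H at the top and UBE2C at the foot, and in HEK293T the gaps are smaller.

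Poly(A) tails were measured on single nanopore molecules in 1 library per line, with the authors' median per gene and an unstated unit of length. Reads edited by both editors had the shorter median tail for 9 of 10 members in HCT116, where 83.1% of 1028 genes with 10 reads in both classes had it, and for all 4 in HEK293T, against 89.6% of 527. The median difference over members was -34.5 in HCT116 and -32.8 in HEK293T, against -37.1 and -33.1 over all such genes. In these tail differences the members thus stood near the background. In HCT116, UBE2A had 102 in 37 doubly edited reads, against 154 in 180 other reads, and UBE2N had 88.1 in 28 doubly edited reads, against 136 in 292 other reads. UBE2Z had 116 in 35 doubly edited reads, against 161 in 96 other reads, and UBE2E3 had 119 in 54 doubly edited reads, against 163 in 192 other reads. UBE2K was the exception, with 133 in 35 doubly edited reads, against 118 in 224 other reads. UBE2D3 had 104 in 75 doubly edited reads, against 137 in 700 other reads, and UBE2B had 132 in 20 doubly edited reads, against 169 in 113 other reads. UBE2J1 had 112 in 39 doubly edited reads, against 138 in 75 other reads, UBE2W had 131 in 33 doubly edited reads, against 156 in 79 other reads, and UBE2G1 had 129 in 15 doubly edited reads, against 133 in 111 other reads. The share of reads edited by both was highest in UBE2J1, 34.2% (exact Clopper-Pearson 95% interval 25.6 to 43.7), and lowest in UBE2N, 8.75% (5.89 to 12.4). These intervals cover counting error only. The median share in HCT116 was 16.0% over the 10 members, against 23.6% over the 1028 genes. In HEK293T it was 23.6% over the 4 members, against 22.7% over the 527 genes. In HEK293T, UBE2E3 had 72.9 in 13 doubly edited reads, against 124 in 32 other reads, UBE2V2 had 82.7 in 18 doubly edited reads, against 116 in 62 other reads, UBE2D2 had 59.6 in 26 doubly edited reads, against 91.5 in 79 other reads, and UBE2N had 103 in 14 doubly edited reads, against 115 in 83 other reads. UBE2N and UBE2E3, measured in both lines, were shorter in doubly edited reads in both.

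Other genes of the ubiquitin pathway were read with the same fits. With LSM14A-ADAR2dd the genes that rose were 7 of 8 E1 enzymes tested, 5 of 6 E2s with other names, 10 of 10 modifiers, 12 of 12 cullin-RING scaffolds, 13 of 13 subunits of the anaphase-promoting complex and 22 of 22 HECT and RBR ligases, and none fell, where 93.1% of all genes rose. Median scores ran from 3.82% in the anaphase-promoting complex to 6.30% in the cullin-RING scaffolds, beside 4.13% for the UBE2 mRNAs. With APOBEC1-DDX6 the numbers were 6 of 7 E1s, 2 of 4 other E2s, 7 of 9 modifiers with 1 lower, 9 of 13 scaffolds, 6 of 9 subunits of the anaphase-promoting complex and 12 of 21 ligases, where 52% of all genes rose and 2.73% fell. Their median scores were 1.42%, 1.02%, 1.97%, 1.39%, 0.798% and 0.746% in the same order, beside 1.64% for the UBE2 mRNAs. The called genes of highest score with LSM14A-ADAR2dd are given as mean ± SD (n = 2), with the mean of ADAR2dd alone in brackets. Among modifiers the highest was RPS27A at 20.7% ± 0.914 (against 0.0598%), which encodes ubiquitin fused to a ribosomal protein. Among E1s they were UBA3 at 7.46% ± 0.0793 (against 0.335%), part of the NEDD8 E1, and UBA6 at 7.27% ± 1.13 (against 0.137%), which charges UBE2Z. Among other E2s they were UFC1 at 11% ± 0.973 (against 0%) and BIRC6 at 4.69% ± 0.229 (against 0.165%). Among ligases and their scaffolds they were RNF14 at 11.9% ± 0.0786 (against 0.207%), AREL1 at 8.31% ± 1.02 (against 0.203%), RNF7 at 11.3% ± 0.955 (against 0.151%) and CUL7 at 9.93% ± 4.39 (against 0.317%), and in the anaphase-promoting complex ANAPC15 at 9.26% ± 11.1 (against 0%) and ANAPC13 at 6.41% ± 0.385 (against 0.210%). With APOBEC1-DDX6 (n = 3, APOBEC1 alone in brackets) they were UFM1 at 3.89% ± 0.693 (against 0.714%) and SUMO2 at 3.66% ± 0.171 (against 0.349%) among modifiers, UBA6 at 2.25% ± 0.711 (against 0.326%) among E1s, and AKTIP at 2.44% ± 0.528 (against 0.439%) and BIRC6 at 1.05% ± 0.200 (against 0.446%) among other E2s. The SCF adaptor SKP1 at 9.22% ± 0.339 (against 1.41%) and ELOC at 3.91% ± 0.387 (against 0.193%) led the scaffolds, ANAPC13 at 3.89% ± 1.3 (against 0.149%) and ANAPC16 at 2.29% ± 0.411 (against 0.173%) the anaphase-promoting complex, and NEDD4 at 5.26% ± 0.632 (against 1.05%) and RNF14 at 3.19% ± 1.58 (against 0.555%) the ligases. For ANAPC15 with LSM14A-ADAR2dd the SD was above the mean.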

How the data were processed

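Reads and edited reads per gene were deposited by the authors as whole counts, with the score as a fraction, edited reads over reads. Uninduced libraries were deposited as TPM and translation efficiency as a log2 ratio by the authors, and the nanopore table gives the authors' median tail length per gene as a score of unstated unit. The submitters' processing notes list STAR 2.7.9a, featureCounts 2.0.1, cutadapt 1.18 and FastQC 0.11.9 with build hg38; how edits were called and multiply mapped reads counted is not given in the sources used here.

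edgeR 4.0.16's quasi-likelihood test (R 4.3.3) was run on edited reads with log reads as offset, over all genes with 20 reads in every library and 10 edited reads in all, with Benjamini-Hochberg adjustment. A further fit added the library-wide edited share to the offset. Reads were tested with TMM factors, and TPM with limma 3.58.1 on log2(TPM + 1), over genes with a mean of at least 1 TPM, in 1 fit of all 10 libraries. Translation and tails have 1 value per group and no test. Scripts were tested on simulated data. Alternatives were DESeq2 1.42.0, limma on log2 scores, other minimums, TMM factors, the replicate number as a block and each library left out.

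In the LSM14A-ADAR2dd, APOBEC1-DDX6, HCT116 and HEK293T dual-editor and LSM14A-TRIBE-ID 120 min comparisons the text names the 6 highest and 4 lowest scores, any member that fell, and the UBE2D, K63, mitotic and ubiquitin-like members tested, and elsewhere the 2 highest and any that fell. For translation these are the 4 largest and 4 smallest differences, for tails all members measured, for TPM the members called and the 4 highest and lowest, and for each pathway list the 2 called genes of highest score. A few genes that these rules select are not reported here. The members, role groups and 6 pathway lists were chosen with earlier results of these data known. Groups follow the labels. Of 131 samples, 38 had no file of their own. Of these, the polysome and nanopore samples enter through the series tables of translation and tails, and the XBP1 samples were not analysed here. In 19 of 47 pairs of libraries reads did not differ beyond counting noise, but edited reads did in all 47, so libraries were kept apart. The replicate numbers of LSM14A-TRIBE-ID were taken to pair libraries, since deviations of reads from the time means correlated at 0.692 to 0.750 between same-numbered libraries over the 10 pairs of times, while no label states why.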

Additional observations from a re-analysis of the deposited data

Results flagged for a closer look

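For 9 E2 mRNAs the APOBEC1-DDX6 libraries lay on opposite sides of the APOBEC1 libraries in induced and in uninduced HCT116 cells. Every induced library was on one side and every uninduced library on the other. The share of all genes that met this rule was not counted, so the number is not read as particular to E2 mRNAs. The difference between the states itself was not tested, since the induced values are RPM and the uninduced ones TPM. The log2 ratio of APOBEC1-DDX6 over APOBEC1 was -3.07 in induced and 0.79 in uninduced cells for UBE2C, which starts ubiquitin chains for the anaphase-promoting complex. UBE2T, of the Fanconi pathway, had -2.24 in induced and 0.76 in uninduced cells, and UBE2S, which extends those chains, had -0.25 in induced and 0.62 in uninduced cells. The K48-chain enzyme UBE2K had -0.58 in induced and 0.078 in uninduced cells, the NEDD8 enzyme UBE2M had -0.34 in induced and 0.27 in uninduced cells, the K63-chain enzyme UBE2N had -0.20 in induced and 0.25 in uninduced cells, and UBE2J1 of the ER membrane had -0.082 in induced and 0.11 in uninduced cells. On the other side stood UBE2R2, with 0.24 in induced and -0.14 in uninduced cells, and UBE2D4, with 0.42 in induced and -0.20 in uninduced cells. Beside UBE2C, UBE2T and UBE2S these ratios lie between -0.58 and 0.42, and the scaling of the induced reads by TMM factors lowers each of them. For UBE2J1 the TMM-scaled log2 change was -0.20 and for UBE2R2 0.12, both on the same side as the plain ratio. In uninduced cells limma did not call UBE2K, UBE2J1 or UBE2D4 (adjusted p = 0.0971, 0.0769 and 0.117). Its uninduced call of UBE2R2 was lost without APOBEC1-DDX6 library 2 (adjusted p = 0.0507).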

How the results depend on the processing

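Of 242 counts of called E2 mRNAs under another setting, 191 stayed within 1.5 times the reported count, as did 143 of 203 with 1 library left out. In what follows each count is set against the reported one, and the cause was not tested. DESeq2 gave DDX6-ADAR2dd 6 against 10, ADAR2dd-DDX6 5 against 8, ADAR2dd-LSM14A 1 against 6, ADAR2dd-EDC3 1 against 2, ADAR2dd-4E-T 1 against 2, EDC3-ADAR2dd 0 against 2, ADAR2dd-PATL1 0 against 1, LSM14A-APOBEC1 3 against 11, APOBEC1-PATL1 4 against 12, 4E-T-APOBEC1 3 against 10, APOBEC1-4E-T 1 against 3, DCP2-APOBEC1 0 against 3, HEK293T dual editors C-to-U 18 against 28, LSM14A-TRIBE-ID 15 min 0 against 5, LSM14A-TRIBE-ID 30 min 6 against 18 and reads in LSM14A-ADAR2dd 5 against 9. limma on log2 scores gave ADAR2dd-LSM14A 1 against 6, ADAR2dd-EDC3 0 against 2, ADAR2dd-4E-T 0 against 2, EDC3-ADAR2dd 0 against 2, ADAR2dd-PATL1 0 against 1, LSM14A-APOBEC1 4 against 11, APOBEC1-PATL1 3 against 12, 4E-T-APOBEC1 4 against 10, APOBEC1-4E-T 0 against 3, DCP2-APOBEC1 1 against 3 and LSM14A-TRIBE-ID 15 min 0 against 5. With no minimum on edited reads the counts were ADAR2dd-LSM14A 3 against 6, ADAR2dd-EDC3 0 against 2, ADAR2dd-4E-T 0 against 2, EDC3-ADAR2dd 0 against 2 and ADAR2dd-PATL1 0 against 1, where more genes were tested. The replicate block gave ADAR2dd-4E-T 0 against 2, EDC3-ADAR2dd 1 against 2, APOBEC1-4E-T 1 against 3 and DCP2-APOBEC1 1 against 3, in comparisons where the numbers were not found to pair libraries. 1 fit over all times gave LSM14A-TRIBE-ID 15 min 8 against 5. Relative to the library-wide share, DESeq2 gave LSM14A-ADAR2dd 4 against 7, APOBEC1-DDX6 4 against 7, HCT116 dual editors C-to-U 3 against 6, HEK293T dual editors C-to-U 2 against 6 and LSM14A-TRIBE-ID 120 min 7 against 11, limma gave LSM14A-ADAR2dd 4 against 7, APOBEC1-DDX6 3 against 7, HEK293T dual editors A-to-I 3 against 5, HEK293T dual editors C-to-U 0 against 6 and LSM14A-TRIBE-ID 120 min 6 against 11, the replicate block gave HCT116 dual editors A-to-I 3 against 6, and TMM factors gave APOBEC1-DDX6 16 against 7, HCT116 dual editors A-to-I 12 against 6 and HCT116 dual editors C-to-U 14 against 6. With 1 library left out the counts ran 3 to 9 for 4E-T-APOBEC1, 0 to 2 for ADAR2dd-4E-T, 5 to 8 for ADAR2dd-DDX6, 0 to 2 for ADAR2dd-EDC3, 2 to 6 for ADAR2dd-LSM14A, 1 to 2 for APOBEC1-4E-T, 5 to 12 for APOBEC1-PATL1, 0 to 3 for DCP2-APOBEC1, 5 to 8 for DDX6-ADAR2dd, 0 to 1 for EDC3-ADAR2dd, 17 to 27 for HEK293T dual editors C-to-U, 4 to 8 for LSM14A-APOBEC1, 0 to 6 for LSM14A-TRIBE-ID 15 min, 8 to 19 for LSM14A-TRIBE-ID 30 min, 10 to 16 for PATL1-ADAR2dd, 0 to 22 for illumina HCT116 dual editors C-to-U and 3 to 12 for reads in LSM14A-ADAR2dd, and on the relative scale 4 to 8 for APOBEC1-DDX6, 0 to 4 for HCT116 dual editors A-to-I, 0 to 11 for HCT116 dual editors C-to-U, 0 to 4 for HEK293T dual editors A-to-I, 0 to 5 for HEK293T dual editors C-to-U, 0 to 2 for LSM14A-ADAR2dd and 3 to 10 for LSM14A-TRIBE-ID 120 min. A lone library left in a group was assumed to vary like those of the other group. Of 1639 values of named genes, 1515 kept direction and call, 108 lost the call, 6 gained one and 10 changed sign, all of these 10 without 1 library and none of them called as reported. Their log2 changes ran -1.01 to 0.50 for UBE2J2 in HEK293T dual editors C-to-U, and in DDX6-STAMP-ID at 120 min -1.02 to 0.39 for UBE2D1, -5.73 to 0.62 for UBE2D2, -0.23 to 0.080 for UBE2F, -0.051 to 1.00 for UBE2V2 and -0.19 to 0.25 for UBE2W. Counting APOBEC1-DDX6 libraries 2 and 3 as 1, an alternative chosen after seeing the data, gave 21 calls against 22. A score of 0 in a library with few reads of the gene, as for UBE2D4, UBE2F or UBE2W, does not limit a gene's editing closely, and 2 libraries a group limit all precision.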
